A study of Rattus norvegicus with 23 samples.

Results

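The G1 cyclins, their kinases and the CDK inhibitors were followed as 10 genes taken by symbol from the authors' tables and by identifier in the count files: the D cyclins Ccnd1, Ccnd2 and Ccnd3, the kinases Cdk4, Cdk6 and Cdk2, the inhibitors Cdkn1b, Cdkn1c and Cdkn2c, and the pocket protein gene Rb1. They are 10 of the 32552 genes counted in the differentiating CG4 libraries. Of the 10, 9 are among the 15219 genes counted in all 23 libraries. Ccnd2 was counted in the 12 differentiating CG4 libraries and was not analysed here in the other groups.

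Total RNA of rat oligodendroglial cultures was sequenced in 23 libraries of 6 groups. The CG4 line is an immortalized rat line derived from oligodendroglia of the brain. Proliferating wild-type CG4 cells (3 libraries) were kept in basal medium with bFGF and PDGF-AA, the mitogens of oligodendrocyte progenitors. Differentiating CG4 cells were moved for 3 days to SATO medium with thyroid hormones (T3/T4) and CNTF, and carried either a control vector that expresses EGFP alone, the same kind of vector with myc-tagged Zfp488, or one with T7-tagged Nkx2.2 (4 libraries each). Per the series' design text all 3 vectors are pCAG vectors that also express EGFP, so the added factors did not come from their own promoters. Primary oligodendroglia, shaken off mixed glial cultures of wild-type rat brain, were sequenced in the same proliferating and differentiating media (4 libraries each). The design asked which genes respond to Zfp488 and Nkx2.2, transcription factors of the oligodendrocyte lineage, and set the CG4 line beside primary cells.

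D cyclins bind Cdk4 and Cdk6 in response to mitogens, and the active kinases phosphorylate Rb1, the retinoblastoma protein. Phosphorylation releases E2F transcription factors, which switch on cyclin E and the genes of DNA replication, and cyclin E with Cdk2 completes the step. INK4 inhibitors such as Cdkn2c (p18) bind Cdk4 and Cdk6 alone, whereas the Cip/Kip inhibitors Cdkn1b (p27) and Cdkn1c (p57) bind cyclin-kinase complexes, and in oligodendrocyte progenitors both Kip proteins are known for their part in leaving the cell cycle.

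Library totals ran from 20063345 to 49206479 counts, so the precision of most members was set by the spread between libraries and not by counting. Levels are given as counts per 1000000 (CPM) scaled by TMM normalisation, on 1 scale over all libraries, and each is compared only within a gene because transcript lengths were not used. The proliferating CG4 libraries differed most among themselves, with a chi-square per degree of freedom of 146 to 254 against 1.74 to 138 within the other groups. Differentiating primary libraries formed the close pairs 1 with 2 (8.16) and 3 with 4 (1.74), against 28.1 to 35.5 across the pairs. Replicates 3 and 4 of that group were still above sampling noise and were counted separately. Some of the results that differ without either pair are given below. Every pair of proliferating primary libraries was close too, at 2.11 to 4.33, against 19.4 to 138 in the differentiating CG4 groups. The p-values of primary cells rest on this narrow spread. The proliferating CG4 libraries were read at 100 bases per end and all others at 150, and they carry no vector, so in CG4 cells differentiation cannot be told apart from the vector and the run. Fewer cells of a type and less RNA per cell cannot be told apart in these bulk samples.

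Oligodendroglial markers were present in every group (8 of 8 genes counted). Their summed level was 3867 to 4175 CPM in proliferating and 77239 to 87078 CPM in differentiating primary cells, and 4028 to 5677 CPM in proliferating and 9215 to 14999.8 CPM in control differentiating CG4 cells. Microglial markers (3 of 8 counted in all files: Csf1r, P2ry12 and Cd68) summed to 451 to 469 CPM in proliferating primary cells, 18.8 to 24.9 CPM in differentiating primary cells and 4.61 to 14.2 CPM over all CG4 libraries. The summed fibroblast, pericyte and endothelial markers (2 of 8 counted) were 57.0 to 78.9 CPM in proliferating and 5.54 to 10.6 CPM in differentiating primary cells. In CG4 cells the latter sum was 0.125 to 0.607 CPM in proliferating and 3.05 to 12.2 CPM in control differentiating libraries. It was 11.1 to 34.4 CPM with Zfp488 and 8.85 to 15.2 CPM with Nkx2.2. The summed astrocyte markers (5 of 6 counted) were 169.9 to 182 and then 1049 to 2142 CPM in primary cells. They were 3.22 to 38.0 CPM in proliferating CG4 cells, where Aldh1l1 was at 0, and 288 to 2178 CPM in control differentiating ones. With Zfp488 they were 406 to 1734 CPM and with Nkx2.2 224 to 2303 CPM. Of these 5, Gja1 did not pass in primary cells (-0.29 ± 0.25, adjusted p = 0.297), and Slc1a3 and Slc1a2 did not pass in CG4 cells. The summed neuronal markers (4 of 5 counted) were 56.9 to 159 CPM over all groups, a sum that holds opposite changes: in primary cells Syt1 rose (3.12 ± 0.07, adjusted p = 1.38e-11) and Rbfox3, Snap25 and Syn1 fell. The part of other cell types in the differences described next was not tested.

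**Figure D1:**
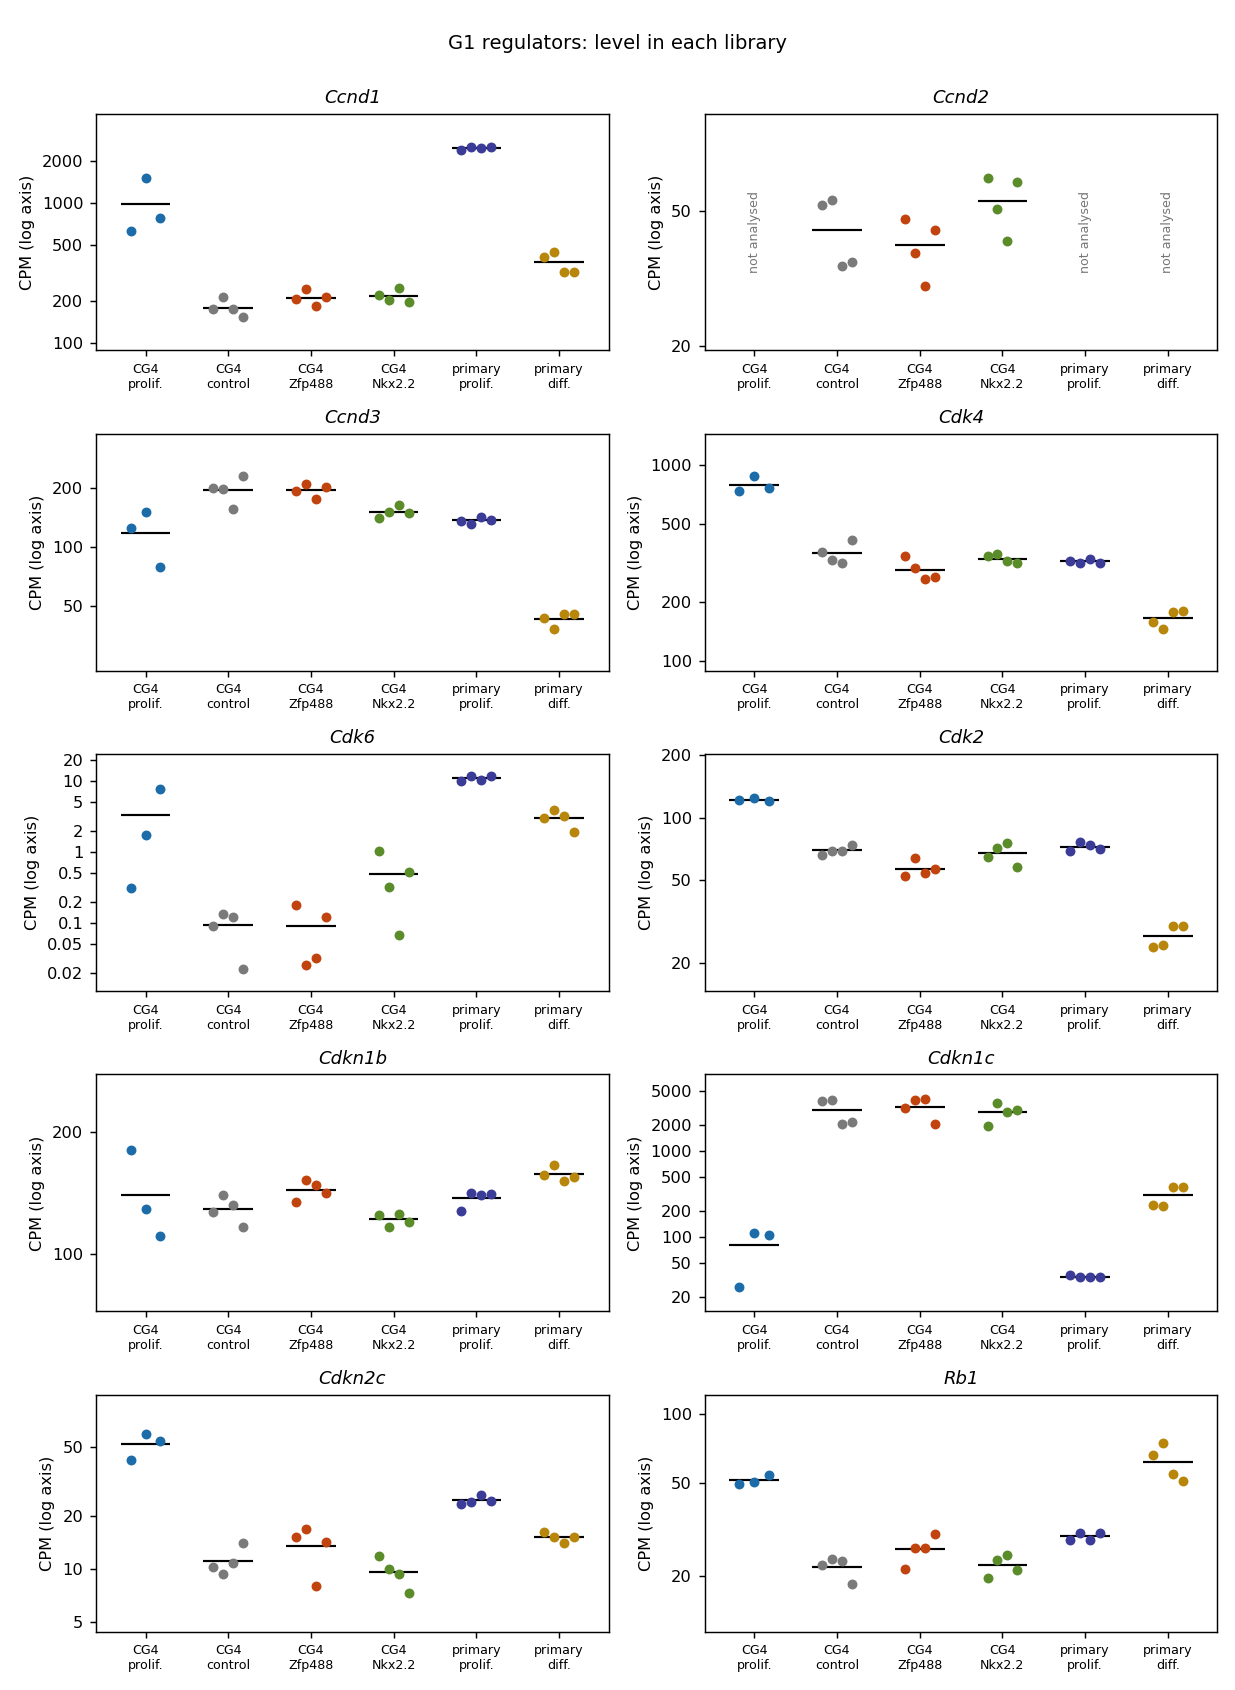
Level of each of the 10 genes in each library, in CPM on a log axis; points are libraries in replicate order and the line is the group mean. Cdkn1c is highest in all 12 differentiating CG4 libraries (1961 to 4043 CPM), Ccnd1 in the 4 proliferating primary libraries (2385 to 2526 CPM), and Ccnd2 was counted in differentiating CG4 cells only.

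In primary cells, 3 days of differentiation lowered both D cyclins that could be followed, all 3 kinases and the INK4 inhibitor Cdkn2c, and raised the Kip inhibitor Cdkn1c and the pocket protein gene Rb1. The small rise of the other Kip inhibitor, Cdkn1b, held its direction only with some scalings. All 9 members tested passed edgeR's quasi-likelihood test (Benjamini-Hochberg adjusted p under 0.05), 3 higher and 6 lower, where 84.8% of the 12310 genes tested passed it, 41.5% higher and 43.3% lower. A count of 9 of 9 is therefore close to the background, and the sizes and directions carry the description. The median log2 change of the 9 members was -0.92, beside -0.02 over all genes tested.

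Ccnd1 (ENSRNOG00000020918), the D cyclin most tied to mitogen signals, stood at 2385, 2526, 2474 and 2523 CPM in proliferating primary cells and at 413, 444, 320.1 and 323 CPM after differentiation. The groups were far apart, with libraries 3 and 4 lowest. The fall was 2.68 on the log2 scale (log2 fold change -2.68 ± 0.10 SE, adjusted p = 5.16e-10), or 6.42-fold. Ccnd3 (ENSRNOG00000050258), the D cyclin often retained in differentiating cells of other lineages, fell from 135, 131, 141 and 136 CPM to 43.5, 38.2, 45.2 and 45.2 CPM. Its groups did not overlap, and the log2 fold change was -1.61 ± 0.06 (adjusted p = 5.11e-10).

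Cdk4 (ENSRNOG00000025602), a catalytic partner of the D cyclins, was at 322, 316, 332 and 316 CPM in proliferating and 158, 146, 178 and 179.7 CPM in differentiating primary cells. It showed the smallest fall of the 3 kinases, -0.92 ± 0.07 (adjusted p = 2.04e-07), and every differentiating library lay below every proliferating one. Cdk6 (ENSRNOG00000009258), the other D cyclin kinase, was at 10.1, 11.7, 10.5 and 11.7 CPM and then at 2.98, 3.89, 3.19 and 1.89 CPM, a log2 fold change of -1.82 ± 0.15 (adjusted p = 5.8e-07). These values rest on 240 to 436 and 37 to 101 reads per library. Cdk2 (ENSRNOG00000006469), the partner of cyclins E and A, fell from 68.8, 76.2, 73.8 and 70.7 CPM to 23.8, 24.3, 30.0 and 30.1 CPM. Its log2 fold change was -1.38 ± 0.08 (adjusted p = 3.57e-08), with the differentiating libraries again in the pairs 1 with 2 and 3 with 4.

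Cdkn1c (ENSRNOG00000059500), the Kip inhibitor p57, was even in proliferating primary cells at 35.5, 34.0, 34.4 and 34.1 CPM and reached 234, 229, 386 and 385 CPM after differentiation. All 4 differentiating libraries were above all proliferating ones, and libraries 3 and 4 were above 1 and 2. The log2 fold change of 3.20 ± 0.19 (adjusted p = 2.39e-08), or 9.22-fold, was the largest rise among the members. Cdkn1b (ENSRNOG00000007249), p27, differed far less: 128, 142, 140.4 and 141 CPM in proliferating and 157, 166, 152 and 155 CPM in differentiating cells. The groups did not overlap and the log2 fold change was 0.24 ± 0.04 (adjusted p = 0.000449), but this direction depended on the scaling. With library totals in place of TMM the median of all genes shifted to -0.52, 27.8% of the called genes were higher in place of 49%, and Cdkn1b was called lower (-0.27, adjusted p = 0.000165). With all 23 libraries in 1 fit it was 0.20 (adjusted p = 0.0848). The other 8 members kept their direction and call under both.

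Cdkn2c (ENSRNOG00000008956), the INK4 inhibitor p18, went opposite to the Kip inhibitors: 23.6, 24.1, 26.4 and 24.6 CPM in proliferating and 16.3, 15.3, 14.0 and 15.2 CPM in differentiating primary cells. The change was modest and without overlap, -0.65 ± 0.06 (adjusted p = 2.15e-06). Rb1 (ENSRNOG00000016029) rose from 28.5, 30.6, 28.4 and 30.4 CPM to 66.4, 75.0, 54.9 and 51.4 CPM, a log2 fold change of 1.11 ± 0.10 (adjusted p = 1.04e-06). Its differentiating libraries 1 and 2 were highest, and 3 and 4 were still above every proliferating library.

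In CG4 cells the comparison of control differentiating with proliferating wild-type cells gave a response that shared Ccnd1, the kinases, Cdkn2c and Cdkn1c with primary cells and turned around for Ccnd3 and Rb1. Of 9 members tested, 8 passed, 2 higher and 6 lower, where 65.8% of 12486 genes did, 32.5% higher and 33.2% lower. The median over the members was -1.13, beside 0.01 over all genes.

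Ccnd1 was uneven in proliferating CG4 cells, at 631, 1519 and 784 CPM, and lay at 173, 214, 173 and 152 CPM in control differentiating cells. The groups were well apart and the log2 fold change was -2.43 ± 0.30 (adjusted p = 0.000186). Ccnd3 was at 125, 151 and 78.8 CPM in proliferating and 197, 155 and 229 CPM in control libraries 2, 3 and 4, with control library 1 just above library 2. The highest proliferating library fell just short of the lowest differentiating one, and the rise of 0.75 ± 0.23 (adjusted p = 0.0197) missed the threshold without control library 4 (0.66, adjusted p = 0.0555). Without proliferating library 3 the rise was 0.52 (adjusted p = 0.0413).

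Cdk4 fell from 731, 874 and 757 CPM to 357, 328, 314 and 413 CPM (log2 fold change -1.13 ± 0.14, adjusted p = 0.000166), and Cdk2 from 121, 124 and 119.9 CPM to 66.1, 68.7, 69.3 and 73.8 CPM (-0.78 ± 0.09, adjusted p = 0.000137). Both kinases had narrow groups that did not overlap. Cdk6 was scarce and uneven in proliferating CG4 cells, with 13, 55 and 324 reads or 0.313, 1.72 and 7.86 CPM. In control differentiating cells it gave 4, 5, 5 and 1 reads, or 0.0894, 0.135, 0.123 and 0.0225 CPM. Its log2 fold change of -5.10 ± 1.06 (adjusted p = 0.00313) rested largely on proliferating library 3, without which it was -3.40 (adjusted p = 0.0081).

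Cdkn1c stood at 26.1, 111 and 104 CPM in proliferating CG4 cells and at 3803, 3969, 2089 and 2188 CPM in control differentiating cells. Control libraries 1 and 2 were above 3 and 4, and all 4 were far above the proliferating libraries. The log2 fold change was 5.26 ± 0.60 (adjusted p = 0.000128), or 38.4-fold. Cdkn1b did not pass the test, with 181, 129 and 111 CPM against 127, 140.1, 132 and 117 CPM and a log2 difference of -0.09 ± 0.17 (adjusted p = 0.656). Its groups overlapped throughout, proliferating library 1 being the highest of the 7. Cdkn2c fell from 42.0, 59.5 and 54.3 CPM to 10.3, 9.42, 10.8 and 14.0 CPM (-2.20 ± 0.18, adjusted p = 2.44e-05), and Rb1 from 49.5, 50.8 and 54.3 CPM to 22.2, 23.5, 23.2 and 18.4 CPM (-1.21 ± 0.13, adjusted p = 9.55e-05). Neither gene had overlapping groups.

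**Figure D2:**
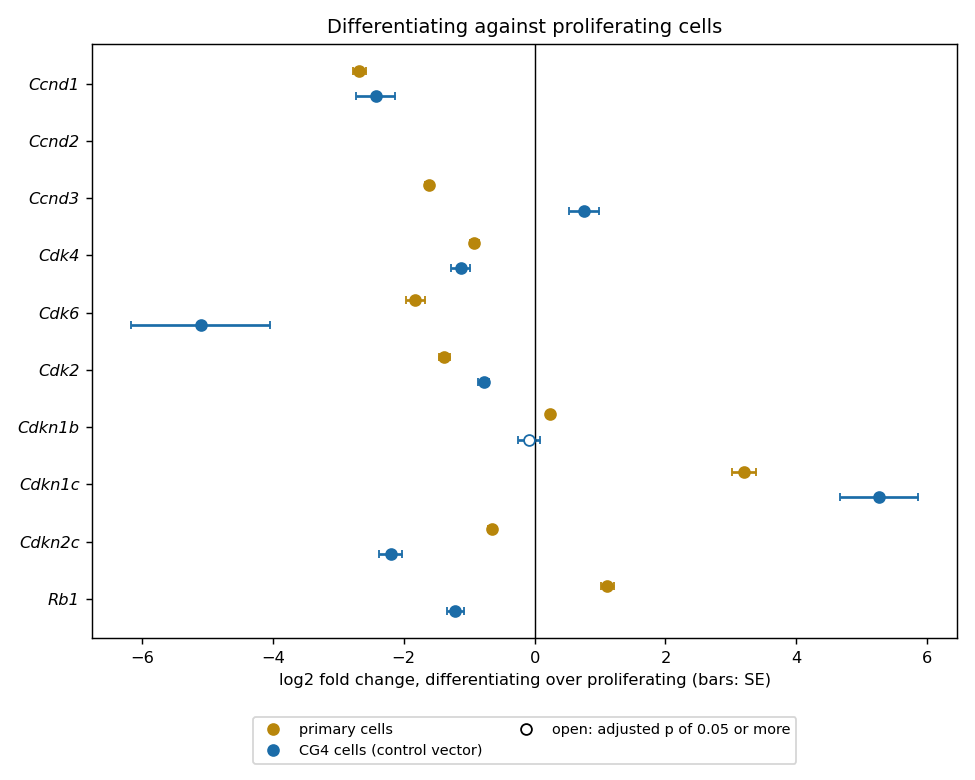
Log2 fold change of each gene, differentiating over proliferating, in primary cells and in CG4 cells with the control vector, with bars of 1 SE; filled points passed the test. Ccnd3 and Rb1 lie on opposite sides of 0 in the 2 sources (-1.61 and 0.75, 1.11 and -1.21), and Cdkn1c lies far to the right in both (3.20 and 5.26).

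The difference between the CG4 and the primary response was tested as an interaction in a fit of the 15 libraries concerned, which share no library between the sources. Of 9 members 6 passed, 3 higher and 3 lower in CG4 cells, where 69.3% of 13207 genes did, 33.8% higher and 35.4% lower. In both sources 5 members were lower (Ccnd1, Cdk2, Cdk4, Cdk6 and Cdkn2c), 1 was higher (Cdkn1c), and 2 passed in both with opposite signs (Ccnd3 and Rb1). The share of all genes called in both, with equal or opposite signs, is not given, so these counts only describe the members. The response of Ccnd3 was 2.41 ± 0.24 higher in CG4 cells (adjusted p = 5.3e-07) and that of Rb1 2.28 ± 0.16 lower, a log2 difference of -2.28 (adjusted p = 1.72e-08). The rise of Cdkn1c was larger in CG4 cells by 2.11 ± 0.53 (adjusted p = 0.00275), and the fall of Cdk2 was smaller by 0.64 ± 0.12 (adjusted p = 0.000253).

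Cdkn2c fell further in CG4 cells, with an interaction of -1.50 ± 0.19 (adjusted p = 4.76e-06). Cdk6 did so too in the full set, -3.22 ± 1.03 (adjusted p = 0.0123), and this call was lost without proliferating CG4 library 3 (-1.50, adjusted p = 0.0764). The 3 members that did not pass were Ccnd1 (0.29 ± 0.32, adjusted p = 0.422), Cdk4 (-0.17 ± 0.14, adjusted p = 0.301) and Cdkn1b (-0.29 ± 0.17, adjusted p = 0.156). Ccnd1 passed without proliferating CG4 library 2, the library with the highest Ccnd1 (0.75, adjusted p = 0.00386), and Cdkn1b without library 3 (-0.44, adjusted p = 0.0181). With library totals in place of TMM the median of all genes moved from -0.03 to 0.43 and 66.4% of called genes were higher in place of 48.8%. Under that scaling Ccnd1 passed (0.76, adjusted p = 0.0371), and Cdk4 (0.29) and Cdkn1b (0.18) changed sign without passing. Cell source, run and read length cannot be told apart in this contrast.

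The sources were also set side by side in the same medium, where the share of members that passed was close to that of all genes. In proliferating cells 7 of 9 members passed between CG4 and primary cells, 5 higher and 2 lower in CG4 cells, where 71.2% of 13207 genes did (39.2% higher and 32% lower), and the median of all genes was 0.10. CG4 cells had more Cdk4 (1.27 ± 0.10, adjusted p = 4.75e-08), Cdkn2c (1.05 ± 0.13, adjusted p = 5.6e-06), Rb1 (0.78 ± 0.12, adjusted p = 3.42e-05) and Cdk2 (0.73 ± 0.09, adjusted p = 2.81e-06). Ccnd1 was lower in them (-1.36 ± 0.24, adjusted p = 0.000131), with all 3 CG4 libraries under all 4 primary ones. Cdk6 was lower (-1.76 ± 0.65, adjusted p = 0.0241), a call lost without CG4 library 2 (-1.43, adjusted p = 0.0775), and without library 3 the value was -3.47 (adjusted p = 4.84e-05). Without library 1 it was -1.19 (adjusted p = 0.0262). Cdkn1c was higher (1.19 ± 0.38, adjusted p = 0.0121) although CG4 library 1 lay under the primary range, and the call was lost without library 2 (0.91, adjusted p = 0.0605) or 3 (0.99, adjusted p = 0.0523). Ccnd3 (-0.22 ± 0.17, adjusted p = 0.274) and Cdkn1b (0.01 ± 0.13, adjusted p = 0.969) did not pass. Ccnd3 passed without library 2 (-0.42, adjusted p = 0.0339).

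After differentiation all 9 members passed between control CG4 and primary cells, 4 higher and 5 lower, where 73% of 13207 genes did, 36.8% higher and 36.2% lower. The largest gaps were in Cdk6 (-4.98 ± 0.82, adjusted p = 6.36e-05), Cdkn1c (3.30 ± 0.39, adjusted p = 2.23e-06) and Ccnd3 (2.19 ± 0.17, adjusted p = 2.52e-08). Differentiating CG4 cells also held more Cdk2 (1.37 ± 0.08, adjusted p = 2.68e-09) and Cdk4 (1.10 ± 0.10, adjusted p = 1.18e-07). For both kinases their range overlapped that of proliferating primary cells, 66.1 to 73.8 against 68.8 to 76.2 CPM for Cdk2 and 314 to 413 against 316 to 332 CPM for Cdk4. Ccnd1 (-1.07 ± 0.22, adjusted p = 0.000423) and Rb1 (-1.50 ± 0.11, adjusted p = 2.5e-08) were lower. Cdkn2c was lower by a small amount (-0.44 ± 0.13, adjusted p = 0.00618) with touching groups, and the call was lost without primary libraries 1 and 2 (-0.38, adjusted p = 0.062) and with library totals (-0.15, adjusted p = 0.288). Library totals moved the median of all genes to 0.29 and the share of higher calls to 64.3% from 50.4%. Cdkn1b was just past the threshold (-0.28 ± 0.12, adjusted p = 0.0444). That call was lost without primary library 1, 2, 3 or 4 (adjusted p = 0.0718, 0.096, 0.0555 and 0.0662) and without control CG4 library 1, 3 or 4 (adjusted p = 0.078, 0.0661 and 0.12). Without primary libraries 1 and 2 together 4 members were called higher and 3 lower, and without 3 and 4 together 4 and 4.

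Over the 6 groups Ccnd1 ran in the order proliferating primary (2477 ± 65.7 CPM, SD, n = 4), proliferating CG4 (978 ± 474, n = 3), differentiating primary (375 ± 63.0, n = 4), and then the 3 differentiating CG4 groups (216 ± 21.6 with Nkx2.2, 209.6 ± 24.0 with Zfp488 and 178 ± 26.0 in control, n = 4 each). The last 3 overlap one another, and no other neighbours in that order do. Cdkn1c ran from the differentiating CG4 groups, which overlap (3303 ± 903 with Zfp488, 3012 ± 1012 in control and 2862 ± 685 CPM with Nkx2.2), through differentiating primary (309 ± 89.0) and proliferating CG4 cells (80.1 ± 46.9) to proliferating primary cells (34.5 ± 0.671), the last pair overlapping. For Rb1 the differentiating primary cells were highest (61.9 ± 10.8 CPM) and overlapped the proliferating CG4 cells (49.5 to 54.3). Cdkn1b covered only 111 to 181 CPM over all 23 libraries.

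In differentiating CG4 cells the differences of the 9 members tested lay within 0.49 on the log2 scale between any pair of groups, and Cdk6, too scarce to pass the filter on low counts, is given separately. None of the 9 passed edgeR's quasi-likelihood test for Zfp488 against control (0 of 9 tested, where 9.04% of 14811 genes did, 5.89% higher and 3.15% lower). An unadjusted p under 0.05 was reached by 4 members, beside 3668 of the 14811 genes. DESeq2 called 1 member, beside 2136 genes. Against control none passed for Nkx2.2 either (0 of 9, where 10.6% of genes did, 6.1% higher and 4.48% lower). For this factor 2 members had an unadjusted p under 0.05, beside 3787 of the 14811 genes. DESeq2 called 1 of them, beside 2320 genes. Between the 2 factors 2 of 9 passed, both higher with Zfp488, where 25.3% of genes did with 13.3% higher and 12% lower. The summed oligodendroglial markers were 15259.6 to 26471 CPM with Zfp488 and 6253 to 14401 CPM with Nkx2.2, and their part in these differences was not tested. The counts are near the background, and the share of higher calls among all genes moved with the scaling. It was 65.2% for Zfp488, 57.7% for Nkx2.2 and 52.6% between them with TMM, and 49.2%, 72.2% and 28.2% with library totals, which moved the median between the factors from -0.01 to -0.14.

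Equal replicate numbers went together in these 12 libraries, and with the number as a block 1 of 9 members passed for Zfp488 (background 24.1%), 1 for Nkx2.2 (26.2%) and 4 between the factors (42.4%). For Zfp488 this was Cdk2, at 52.5, 64.0, 54.1 and 56.5 CPM against 66.1, 68.7, 69.3 and 73.8 CPM in control. The Zfp488 libraries all lay below the control libraries, by -0.28 ± 0.09 (adjusted p = 0.0791, and 0.031 with the block). For Nkx2.2 it was Ccnd3, at 139.7, 151, 163 and 148 CPM against 155 to 229 CPM in the control libraries given before, where 1 control library lay inside the Nkx2.2 range. The log2 difference was -0.37 ± 0.11 (adjusted p = 0.0501, and 0.0219 with the block), and without control library 3 it was -0.47 (adjusted p = 0.00734). Leaving out Nkx2.2 library 3 also gave a call (adjusted p = 0.0371), and leaving out Zfp488 library 1 gave one for Cdk4 against control (-0.35, adjusted p = 0.0492).

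Ccnd3 was at 191, 209, 175 and 201 CPM with Zfp488, above all 4 Nkx2.2 libraries, with a difference of 0.37 ± 0.11 between the factors (adjusted p = 0.0276). That call was lost without Nkx2.2 library 1, 2 or 4 (adjusted p = 0.0788, 0.065 and 0.0655), without Zfp488 library 2 or 4 (0.0766 and 0.0672) and with library totals (0.24, adjusted p = 0.123). Cdkn1b was at 135, 153, 148 and 142 CPM with Zfp488 and 125, 117, 126 and 120.3 CPM with Nkx2.2, groups that did not overlap, for a difference of 0.24 ± 0.07 (adjusted p = 0.0271). It was lost without Nkx2.2 library 1, 2 or 4 (adjusted p = 0.0574, 0.1 and 0.0687), without Zfp488 library 2 or 3 (0.0807 and 0.061) and with library totals (0.11, adjusted p = 0.312). With the block Ccnd2 (-0.44 ± 0.12, adjusted p = 0.0127) and Cdk2 (-0.25 ± 0.08, adjusted p = 0.035) passed as well, both lower with Zfp488. Leaving out Nkx2.2 library 3 called Ccnd2 (-0.55, adjusted p = 0.0476). Cdk2 was called without Nkx2.2 library 4 (-0.31, adjusted p = 0.0318) or Zfp488 library 2 (-0.31, adjusted p = 0.043), and Cdkn2c without Zfp488 library 3 (0.68, adjusted p = 0.0194).

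Ccnd2 (ENSRNOG00000057710), the third D cyclin, was at 52.0, 53.8, 34.5 and 35.4 CPM in control, 47.4, 37.5, 30.1 and 44.0 CPM with Zfp488 and 62.5, 50.7, 40.8 and 60.9 CPM with Nkx2.2. Replicate 3 was lowest in each of the 3 groups, and the groups overlapped. Cdk6 did not pass the filter on low counts in this fit. It gave 4, 5, 5 and 1 reads in control, 5, 1, 1 and 4 reads with Zfp488 and 41, 13, 2 and 16 reads with Nkx2.2, so that 3 of 4 Nkx2.2 libraries were above every control library. Without the filter its difference from control was 2.42 ± 0.69 with Nkx2.2 (adjusted p = 0.0489). The authors' deposited table for Nkx2.2 gives Cdk6 a log2 fold change of 2.44 (adjusted p = 0.0291) and Ccnd3 one of -0.36 (adjusted p = 0.0396), the 2 members of 10 under 0.05 there, where 14.4% of its 14581 genes are. The authors' deposited table for Zfp488 has 1 of 9 members under 0.05, Cdk2 with -0.27 (adjusted p = 0.0262), where 14% of its 14441 genes are.

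Ccnd1 was slightly higher with both factors without passing (0.25 ± 0.12 for Zfp488 and 0.29 ± 0.12 for Nkx2.2, adjusted p = 0.211 and 0.135). These 2 comparisons share the control libraries. Cdkn1c, the member with the largest rise on differentiation, was at 3145, 3936, 4043 and 2089 CPM with Zfp488 and 1961, 3622, 2878 and 2987 CPM with Nkx2.2. Both ranges overlap that of the control libraries, and the differences from control were 0.14 ± 0.27 (adjusted p = 0.791) and -0.06 ± 0.27 (adjusted p = 0.912).

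**Figure D3:**
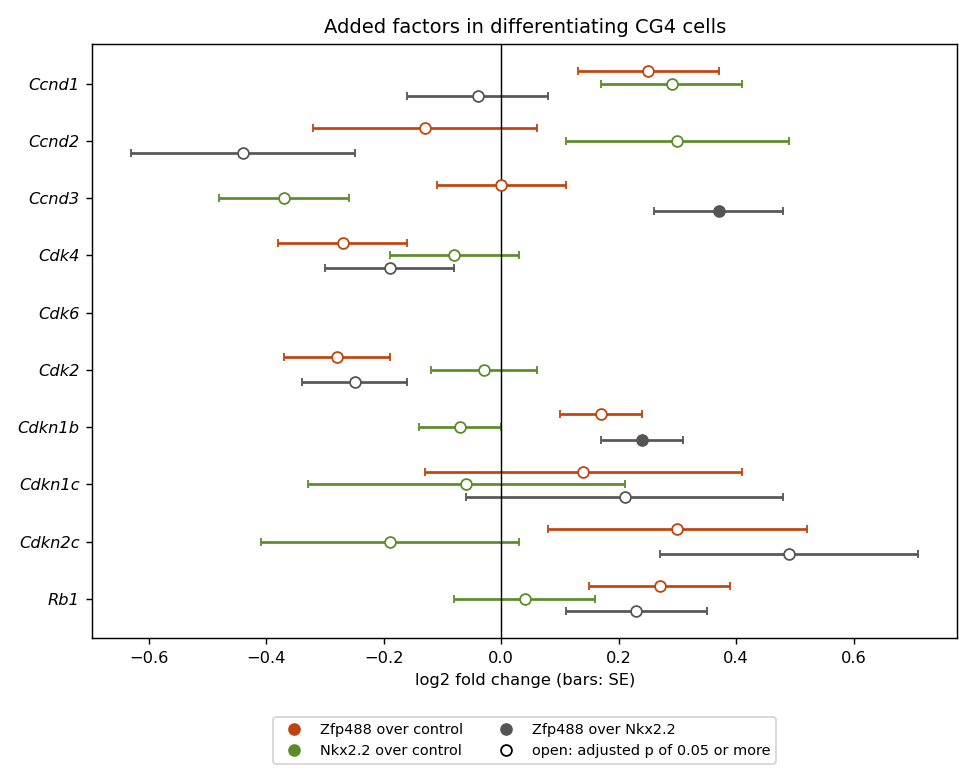
Log2 difference of each gene between the differentiating CG4 groups, with bars of 1 SE; filled points passed the test in the fit without the replicate block. The differences lie between -0.44 and 0.49, and those of Ccnd3 and Cdkn1b between Zfp488 and Nkx2.2 (0.37 and 0.24) are the filled ones. Cdk6 did not pass the filter on low counts.

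The wider G1 pathway was read in 6 lists of genes that are not members. Their counts stand beside 84.8% of all genes called in primary cells (41.5% higher and 43.3% lower) and 65.8% in CG4 cells (32.5% higher and 33.2% lower). The S phase genes that E2F drives were lower in all 15 of 15 cases in both differentiations, with medians of -1.98 in primary and -2.23 in CG4 cells beside -0.02 and 0.01 over all genes. Mcm5, a subunit of the replicative helicase, fell by 2.30 ± 0.04 on the log2 scale in primary cells (adjusted p = 3.23e-12), and its companion Mcm7 had a log2 fold change of -2.12 ± 0.04 (adjusted p = 3.49e-12). Tyms, thymidylate synthase, had the largest log2 fold change of the list in CG4 cells, -4.94 ± 0.18 (adjusted p = 3.88e-07), from 118, 173 and 128 CPM to 4.63, 4.97, 4.38 and 3.88 CPM. Rrm2, a ribonucleotide reductase subunit, followed with -3.22 ± 0.13 (adjusted p = 6.02e-07). The response of Tyms was larger in CG4 than in primary cells (-2.92 ± 0.18, adjusted p = 4.19e-09).

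Among the 10 E2F and DP factors 8 fell and 2 rose in primary cells (9 and 1 with library totals), and 8 fell and 1 rose in CG4 cells. E2f8, a repressor of the family, fell in both (-1.89 ± 0.06, adjusted p = 1.56e-10, and -3.11 ± 0.21, adjusted p = 7.65e-06), and E2f7, its close relative, had -3.71 ± 0.17 in CG4 cells (adjusted p = 1.06e-06). E2f1, an activator that is itself an E2F target, was the exception in CG4 cells and is named there because of its value. It was at 63.7, 63.0, 64.1 and 64.0 CPM in proliferating primary cells but at 0.722, 1.75 and 0.898 CPM in proliferating CG4 cells, and at 14.5, 13.9, 16.9 and 16.4 CPM and 11.1, 9.96, 14.3 and 16.6 CPM after differentiation. It thus fell in primary cells (-2.01 ± 0.07, adjusted p = 1.66e-10) and rose in CG4 cells (3.56 ± 0.39, adjusted p = 9.49e-05), an interaction of 5.63 ± 0.32 (adjusted p = 1.47e-09). Mcm5 in the same proliferating CG4 libraries was at 251, 369 and 248 CPM, close to its 278, 259, 282 and 279 CPM in proliferating primary cells. It does not stand for its list. Of the 15 S phase genes 9 were called higher and 1 lower in proliferating CG4 than in proliferating primary cells. Over all genes 39.2% were higher and 32% lower there. The median was 0.40 for the list, beside 0.10 for all genes.

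Of the 8 G1 partners 7 were tested, since Cdkn2d had no identifier by name. In primary cells 6 fell and 1 rose, and in CG4 cells 3 fell and 2 rose. Ccne1, cyclin E1, fell in primary cells (-2.52 ± 0.09, adjusted p = 5.67e-10), and its response was 1.54 ± 0.22 higher in CG4 cells (adjusted p = 2.32e-05). In CG4 cells Ccne2, cyclin E2, fell by 2.06 ± 0.12 on the log2 scale (adjusted p = 3.56e-06) and the pocket protein gene Rbl1 (p107) had -2.76 ± 0.17 (adjusted p = 4.26e-06). Rbl2 (p130), the pocket protein of resting cells, was the list's rise in primary cells (1.07 ± 0.05, adjusted p = 2.99e-09). The INK4 inhibitor gene Cdkn2b (p15) went from 118, 121, 119 and 117 CPM to 19.9, 20.7, 14.6 and 12.8 CPM in primary cells and from 12.2 to 15.2 CPM to 25.7, 27.3, 22.5 and 23.8 CPM in CG4 cells. It fell in the former (-2.75 ± 0.12, adjusted p = 1.68e-09) and rose in the latter (0.85 ± 0.15, adjusted p = 0.00143), with an interaction of 3.65 ± 0.20 (adjusted p = 1.19e-09). Microglial and fibroblast markers fell over the same primary libraries, and their part in the fall was not tested. Cdkn2a, which encodes p16 and p19Arf, rose in CG4 cells (1.33 ± 0.23, adjusted p = 0.00129).

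**Figure D4:**
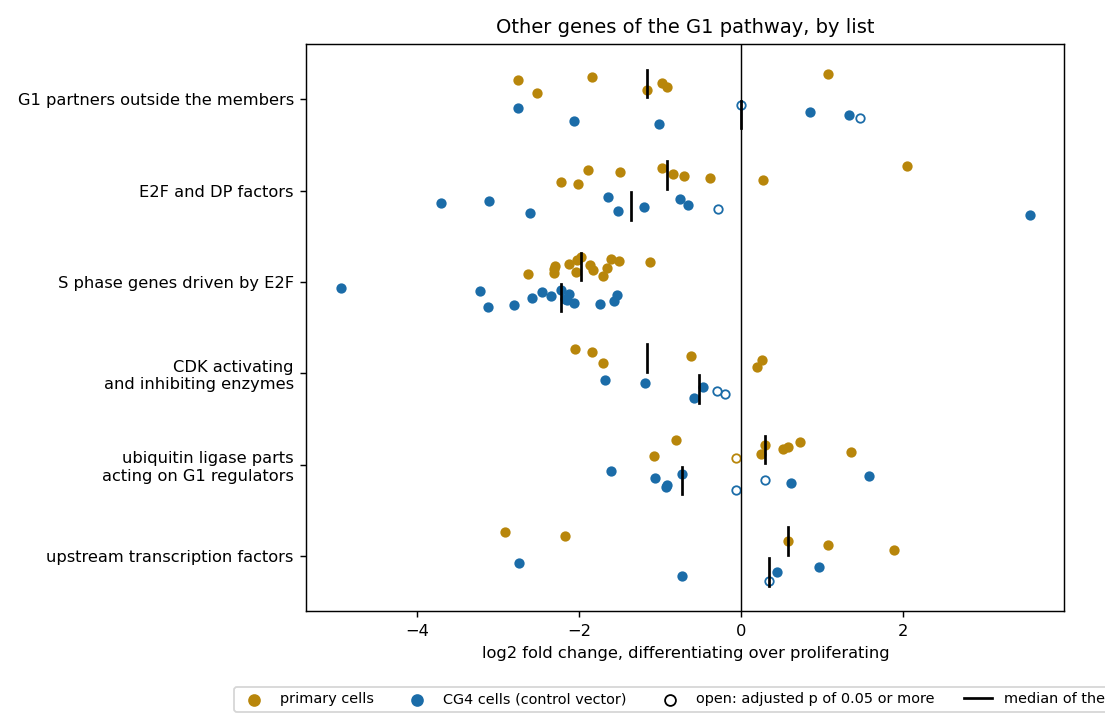
Log2 fold change, differentiating over proliferating, of the pathway genes outside the 10, by list, in primary and CG4 cells; points are genes, filled where they passed the test, and black bars are medians. All 15 S phase genes lie left of 0 in both sources (medians -1.98 and -2.23), and E2f1 is the point far to the right in CG4 cells (3.56).

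Of 6 enzymes that activate or inhibit CDKs 2 rose and 4 fell in primary cells, and 0 rose and 4 fell in CG4 cells. With library totals 0 rose and 6 fell in primary cells, and without differentiating primary libraries 1 and 2 1 rose and 4 fell. Wee1, a kinase that inhibits CDKs, fell in both (-2.05 ± 0.07, adjusted p = 2.09e-10, and -1.68 ± 0.11, adjusted p = 8.69e-06), and Cdc25a, the phosphatase that opposes it, fell in primary cells (-1.70 ± 0.04, adjusted p = 2.29e-11). Of 9 ubiquitin ligase parts that act on G1 regulators 6 rose and 2 fell in primary cells (2 and 5 with library totals), and 2 rose and 5 fell in CG4 cells. In primary cells without differentiating libraries 3 and 4 the counts were 6 and 3. Cks1b, a cofactor in the degradation of p27, fell in primary cells (-1.08 ± 0.05, adjusted p = 3.05e-09), and Skp2, the F-box protein of that complex, had -1.61 ± 0.13 in CG4 cells (adjusted p = 2.42e-05). Fbxo31, an F-box protein that acts on cyclin D1, rose in primary cells (1.36 ± 0.07, adjusted p = 6.08e-09). In CG4 cells Rnf123, a ligase of free p27, rose (1.58 ± 0.14, adjusted p = 3.56e-05), and the ligase part Rbx1 had the largest interaction of the list by p (-1.60 ± 0.10, adjusted p = 5.18e-09).

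Of 5 upstream factors 3 rose and 2 fell in primary cells (2 and 2 with library totals), and 2 rose and 2 fell in CG4 cells. Mycn fell in both (-2.91 ± 0.08, adjusted p = 6.15e-11, and -2.74 ± 0.35, adjusted p = 0.000241). Myc fell in primary cells, from 140.2, 128, 135 and 139 CPM to 28.7, 27.2, 31.3 and 29.5 CPM (-2.18 ± 0.05, adjusted p = 2.38e-11). In CG4 cells it was at 415, 151 and 337 CPM before and 529.8, 585, 517 and 653 CPM after differentiation. That rise of 0.96 ± 0.30 (adjusted p = 0.023) missed the threshold without control library 4 (0.89, adjusted p = 0.0558), and the response differed between the sources by 3.17 ± 0.32 (adjusted p = 5.46e-07). Myc and its relatives bind the E-box CACGTG, and Cdk4 is a known target, so the Cdk4 promoter is shown beside that of Cdkn1b, the member whose level varied least. The letters are the 250 bases before the annotated start on the plus strand, from RefSeq on build GRCr8, at chr7:64771203-64771452 for Cdk4 and chr4:169491254-169491503 for Cdkn1b, with each CACGTG in capitals.
Cdk4: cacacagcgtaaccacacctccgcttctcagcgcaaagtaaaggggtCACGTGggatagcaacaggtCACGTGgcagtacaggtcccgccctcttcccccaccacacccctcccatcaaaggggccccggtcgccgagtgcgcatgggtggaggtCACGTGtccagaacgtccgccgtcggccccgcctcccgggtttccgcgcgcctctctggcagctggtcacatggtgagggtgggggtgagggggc
Cdkn1b: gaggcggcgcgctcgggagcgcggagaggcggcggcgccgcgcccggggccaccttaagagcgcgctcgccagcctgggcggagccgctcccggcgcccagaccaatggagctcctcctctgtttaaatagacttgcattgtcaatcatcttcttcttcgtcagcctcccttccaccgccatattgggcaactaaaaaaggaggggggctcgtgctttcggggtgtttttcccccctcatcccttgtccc
The Cdk4 window holds CACGTG 3 times, beginning 203, 183 and 95 bases before the start, and the Cdkn1b window holds 0. CACGTG reads the same on both strands and the matches do not overlap. It occurs in 5.59% of 33469 promoter windows of that length, and 3 or more copies in 17 of them (0.0508%). Of the 10 members 6 are in the promoter table, and 1 of these, Cdk4, has a match. In primary cells Myc, Mycn and Cdk4 all fell, and in CG4 cells Mycn and Cdk4 fell where Myc rose. Whether Myc or Mycn acts on the Cdk4 promoter in these cells was not tested.

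With the added factors few of these genes passed. For Zfp488 the G1 partners had 2 higher and 0 lower of 7. Cdkn1a, the Cip inhibitor p21, was at 119, 168, 175 and 235 CPM against 57.2, 61.5, 51.3 and 85.1 CPM in control, with no overlap and a log2 difference of 1.46 ± 0.28 (adjusted p = 0.00989). Cdkn2b was the other (0.39 ± 0.09, adjusted p = 0.0212), a call lost without Zfp488 library 2 or 4 (0.068 and 0.0775) or control library 3 or 4 (adjusted p = 0.0636 and 0.0521). Tfdp1, the DP partner of E2F, was the E2F list's single call (-0.39 ± 0.10, adjusted p = 0.0362), lost without each library of the 2 groups except Zfp488 library 1 (adjusted p = 0.054 to 0.116). Myc was lower (-0.51 ± 0.12, adjusted p = 0.0238), lost without Zfp488 library 3 or 4 (adjusted p = 0.0534 and 0.0716) or control library 2 or 4 (0.0556 and 0.0616). With the block 24.1% of all genes were called, and E2f5 (lower), Ambra1 and Foxo1 (both higher) joined these calls, named here after their values were seen. Of the S phase genes 0 of 15 passed in edgeR's quasi-likelihood test, 0 had an unadjusted p under 0.05 and DESeq2 called 0. Over all 14811 genes 3668 had such an unadjusted p and DESeq2 called 2136.

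For Nkx2.2 the calls without the replicate block were all higher: Ccne2 (0.42 ± 0.11, adjusted p = 0.0227), E2f7 (0.70 ± 0.15, adjusted p = 0.012), 1 of 15 S phase genes, Rrm2 (0.56 ± 0.16, adjusted p = 0.0452), and Foxo1, a forkhead factor that activates Cdkn1b (0.82 ± 0.22, adjusted p = 0.0351). E2f7 was at 8.49, 7.19, 7.26 and 6.05 CPM against 4.29, 3.97, 4.33 and 5.36 CPM in control and kept its call without any 1 library. The calls of Ccne2, Rrm2 and Foxo1 were lost without 5, 6 and 6 of the 8 libraries in turn (adjusted p up to 0.0718, 0.121 and 0.105). With the block, where 26.2% of all genes were called, 5 of 15 S phase genes were higher and 0 lower. Cdkn1a and the ligase part Fbxw7 were then called higher as well, and Cdc25a and Myc lower, named here after their values were seen.

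Directly compared, 5 of 10 E2F and DP factors, 4 of 15 S phase genes and 3 of 7 G1 partners were lower with Zfp488 than with Nkx2.2, and 2 G1 partners were higher. Over all genes 25.3% were called, 13.3% higher and 12% lower. The lower counts of each of these lists lie above that 12% but are few. Those of the E2F and S phase lists moved with the block and the scaling. With the block the counts were 7, 9 and 3 lower and 3 G1 partners higher, where 42.4% of all genes were called. With library totals they were 9, 11 and 3 lower and 1 higher, where 3234 of 14811 genes were lower and 1272 higher. The medians were -0.46 for the E2F list and -0.38 for the S phase list, beside -0.01 for all genes. E2f7 (-0.83 ± 0.16, adjusted p = 0.00257), Tfdp1 (-0.44 ± 0.10, adjusted p = 0.00844), Ccne2 (-0.44 ± 0.11, adjusted p = 0.00964) and Mcm4 (-0.50 ± 0.12, adjusted p = 0.012) were lower with Zfp488. Cdkn2b was higher (0.40 ± 0.09, adjusted p = 0.00723). These 5 kept their calls without any 1 library.

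The genes whose pattern was most like each member's were found as the smallest root mean square difference of centred log2 CPM over the 23 libraries, among 11001 named genes. For Ccnd1 they were Hectd2 (0.350) and Mycn (0.416), for Cdkn1c Chadl (0.549) and Cyp2j10 (0.718), for Ccnd3 Btg3 (0.246), for Cdkn2c Blm (0.239) and for Rb1 Sri (0.163). Cdk2 and Cdk4 shared Wdr5 among their 2 nearest genes (0.148 and 0.153). Many genes lay within a distance of 0.5 of some members: 1218 for Cdk2, 1261 for Cdk4, 1478 for Rb1, 642 for Cdkn2c and 385 for Ccnd3. For these the genes named are not particular. Ccnd1 had 8 within that distance and Cdkn1c 0. This distance grows with a gene's own spread over the libraries, which was 2.71 for Cdkn1c, 1.67 for Cdk6, 1.40 for Ccnd1 and 0.170 for Cdkn1b, so the distances are not compared between members.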

How the data were processed

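The 23 rat libraries of total RNA were placed in 6 groups from the submitters' titles, which name biological replicates, and a p-value here speaks only of the spread among those libraries. Each library came with a file of unnormalised read counts made by the authors. Per the submitters' processing notes, alignment was by STAR 2.5.2b and build rn6 is named, beside Trimmomatic 0.36 for trimming and Subread 1.5.2 with featureCounts for counting. Annotation release, strand use and multi-mapping were not given in the sources used here, and overlapping genes cannot be told apart. For each factor against control the authors also deposited a table of log2 fold changes, p-values and a normalised signal per library (counts over a size factor), with DESeq2 among the tools named. Symbols came from these tables, the signal was not tested, and their other values are credited where printed.

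The main test was edgeR 4.0.16 under R 4.3.3: quasi-likelihood, two-sided, TMM scaling, filterByExpr, and Benjamini-Hochberg adjustment over every gene tested (threshold 0.05). The 3 differentiating CG4 groups shared 1 fit over all their genes. Other comparisons used the 15219 genes in all files, with 8 primary, 7 CG4 or 15 joint libraries. SE is the log2 fold change over the root of F. CPM is the count per 1000000 of the TMM-scaled total over the shared genes. The fits were tested on simulated data. Alternatives were DESeq2 1.42.0, other scalings and filters, other sets of libraries, thinned counts, a replicate block and leaving out each library. Library totals without TMM, and primary cells without either close pair, were chosen after seeing the data.

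The members and gene lists were chosen with earlier results of these data known. All 10 members are named. From each list the rule takes up to 3 called genes with the smallest adjusted p per comparison. E2f1 and Cdkn2b in CG4 differentiation, and the levels of Mcm5 in CG4 cells, were added after their values were seen. Likeness used log2(CPM + 0.5) where mean CPM reached 1.

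The fit of the differentiating CG4 libraries has no replicate block. Deviations of equal replicate numbers correlated in every pair there (0.197 to 0.808), although no label explains the number, so values with the block are printed beside the results whose call they change.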

Additional observations from a re-analysis of the deposited data

Results flagged for a closer look

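Within single groups of 4 libraries, 178 combinations of a named gene and a group were searched for 1 library apart from the other 3, and 10 were found, about the 1 in 20 that chance gives. Among the members it was 1 of 48. Cdkn1b was lowest in replicate 1 of the proliferating primary cells, 128 CPM against 140.4 to 142 CPM. In the Nkx2.2 group replicate 3 was apart for 4 genes: highest for Cks1b (57.6 against 44.5 to 46.4 CPM), Mycn (2.78 against 0.781 to 0.952) and Rbx1 (157 against 123 to 128), and lowest for Foxo1 (22.3 against 41.6 to 44.8). Replicate 1 of that group was lowest for Fbxo31 (45.8 against 50.9 to 51.7 CPM). In proliferating primary cells replicate 3 was lowest for Cdc25a (76.6 against 79.5 to 79.9 CPM) and Skp2 (34.1 against 37.0 to 37.2). Cdkn2a was highest in control replicate 4 (265 against 208 to 214 CPM) and Tyms lowest in Zfp488 replicate 3 (3.10 against 4.86 to 5.13).

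The differentiation response differed between CG4 and primary cells, by the interaction test, for 6 members and for genes of every pathway list, of which the 6 genes outside the members that are named for this comparison are given. The log2 differences, CG4 minus primary, were 2.41 for Ccnd3, 0.64 for Cdk2, -3.22 for Cdk6, 2.11 for Cdkn1c, -1.50 for Cdkn2c and -2.28 for Rb1. For the other genes they were 1.54 for Ccne1, 3.65 for Cdkn2b, 5.63 for E2f1, 3.17 for Myc, -2.92 for Tyms and -1.60 for Rbx1. Cell source, vector and read length cannot be told apart in these values.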

How the results depend on the processing

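Of 1954 results of named genes under alternatives, 1831 kept direction and side of the threshold, 68 lost the call, 22 gained one and 33 changed sign. Of these 33, 2 concerned called values, both Cdkn1b with library totals (-0.27 in primary differentiation and 0.01 between differentiating CG4 and primary cells). For Zfp488, 1 member was called with DESeq2, library totals or the replicate block, and 0 to 1 without 1 library. For Nkx2.2 it was 1 with DESeq2, RLE size factors, no filter, shared genes alone or the block, and 0 to 2 without 1 library. Between the factors it was 1 with library totals, 4 with the block, and 0 to 4 without 1 library. The 1 member called with library totals was lower with Zfp488, whereas the 2 calls of the main fit were both higher and were lost under that scaling. Over all genes the block gave 3576, 3876 and 6276 calls in place of 1339, 1567 and 3741, and DESeq2 gave 2136, 2320 and 4461. Without 1 library the calls were 458 to 1509, 924 to 2302 and 2585 to 4636. In the other comparisons the members called without 1 library ranged by at most 1.

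Other sign changes concerned values not called. For Zfp488, Ccnd3 was 0.01 with DESeq2, RLE or the block and 0.02 thinned, and without 1 library Ccnd3 ranged from -0.10 to 0.09 and Cdkn1c from -0.00 to 0.31. For Nkx2.2, library totals gave Cdk2 0.04 and Cdkn1b 0.01, and without 1 library Cdk2 ranged from -0.10 to 0.03, Cdk4 from -0.13 to 0.01, Cdkn1c from -0.21 to 0.10 and Rb1 from -0.04 to 0.09. Between the factors Ccnd1 ranged from -0.12 to 0.02, and in CG4 differentiation Cdkn1b from -0.24 to 0.13. In the interaction, library totals gave Cdk4 0.29 and Cdkn1b 0.18. Between proliferating cells Ccnd3 ranged from -0.42 to 0.03 and Cdkn1b from -0.20 to 0.17, and Cdkn1b was -0.09 with DESeq2 or RLE, -0.02 thinned and -0.17 with library totals. The causes were not tested.

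In the primary and CG4 differentiation comparisons equal numbers did not go together (correlations of -0.0698 to 0.164 and -0.112 to 0.0799). In CG4 cells the fit with the block also left out control library 4, which has no proliferating library of its number. In that fit the Myc call was lost (0.99, adjusted p = 0.0555), as it was without control library 4 alone. The upstream factors then had 0 rises and 1 fall. With the block the members stayed at 3 higher and 6 lower in primary and 2 higher and 6 lower in CG4 cells. Cdk6 is limited by depth, with 1 to 41 reads in differentiating CG4 libraries.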
